A study of Mus musculus with 8 samples.

Results

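The 4 genes described here are the metallothionein genes Mt1 and Mt2 and the genes of the ferritin chains, Fth1 (heavy) and Ftl1 (light), in single-cell RNA sequencing of dissociated mouse retina. They were chosen by name from the authors' deposited table of KO against WT, after values of that same table had been seen, and they are 4 of the 1802 genes it lists. By their titles and genotype labels, 3 libraries are controls (WT) and 5 are ABCA1KO (KO). ABCA1 is a transporter that hands cholesterol and phospholipid from cells to apolipoproteins. Age, strain, the deleted part of the gene, the cells in which it was deleted and the number of animals are not stated in the labels. The table pools all cells of each genotype and holds no value per library, so how far libraries of 1 genotype differ is unknown for every value below.

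Metallothioneins are small cysteine-rich proteins of the cytosol that bind zinc and copper, and their genes are switched on by metal through the transcription factor MTF1, and also by glucocorticoids and oxidative stress. In the retina they are known from Müller glia, astrocytes and pigment epithelium. Ferritin is the hollow shell in which cells store iron, built from heavy chains, which oxidise iron as it enters, and light chains, which help the mineral core form. Both ferritin messages carry an iron-responsive element, a stem-loop near the 5′ end by which iron regulatory proteins block translation when iron is scarce, so ferritin protein and ferritin message need not move together. Only message was measured here.

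Mt1 and Mt2 are neighbours on the plus strand of mouse chromosome 8, in GRCm38 with GENCODE M21 annotation. Mt2 spans 94172664 to 94173568 and Mt1 spans 94179082 to 94180327, with 5513 bases between them, and Mt3 and Mt4, which lie upstream in the same cluster, were not listed. The stretches before their RefSeq starts are shown because the pair lay in the same direction, with matches to the core of the metal response element (TGCACNC or TGCGCNC, either strand) in capitals. Each run has 240 bases, 5′ to 3′ on the plus strand of GRCm38.p6, and ends 11 bases before the start.
Mt2, chr8:94172368-94172607: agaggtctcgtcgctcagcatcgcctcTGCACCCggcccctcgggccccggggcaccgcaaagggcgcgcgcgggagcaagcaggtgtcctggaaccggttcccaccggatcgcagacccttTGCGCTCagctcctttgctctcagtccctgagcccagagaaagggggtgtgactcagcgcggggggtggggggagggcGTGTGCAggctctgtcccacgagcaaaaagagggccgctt
Mt1, chr8:94178839-94179078: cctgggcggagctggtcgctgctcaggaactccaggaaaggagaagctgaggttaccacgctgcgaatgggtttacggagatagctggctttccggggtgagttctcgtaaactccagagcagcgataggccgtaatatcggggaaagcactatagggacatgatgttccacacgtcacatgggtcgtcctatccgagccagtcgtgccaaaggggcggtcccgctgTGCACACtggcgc

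The core occurred 3 times in the printed run of Mt2 and 1 time in that of Mt1. Over whole windows of 300 bases, which reach 50 bases past the start, Mt2 held 4 matches and Mt1 held 3. Of 32851 RefSeq promoter windows of that length, 25.7% held at least 1 match, 1.97% at least 3 and 0.518% at least 4. The windows of Ftl1 (1 window) and Fth1 (2 windows) held 0. The core of the antioxidant response element (TGACNNNGC, either strand) occurred 1 time in the window of Mt2 and 0 times in those of Mt1, Fth1 and Ftl1, against 12.4% of all windows with at least 1. These are letter matches in fixed windows, and the annotated starts differ: the transcript Mt2-201 begins 46 bases after the RefSeq start of Mt2. For Mt1 the matches TGCACTC and TGCGCTC lie past its RefSeq start and so outside the printed run. The counts of the pair thus depend on the start used and do not rank the promoters of Mt1 and Mt2. Nor does a count of 0 show that a gene lacks the element, which may lie outside the window. A match past an annotated start may still belong to the promoter.

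Ftl1 spans 45457944 to 45459884 of chromosome 7 (minus strand), and Fth1 spans 9980598 to 9985098 of chromosome 19 (plus strand). The iron-responsive elements of the transcripts Fth1-201 and Ftl1-201, both of 4 exons, are shown because the chains share this control and lay in opposite directions in the table. Each run has 30 bases of the transcript, and the capitals mark the 6-base loop (CAGTGN).
Fth1: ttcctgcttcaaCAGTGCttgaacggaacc
Ftl1: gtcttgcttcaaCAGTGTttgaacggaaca

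The loop began at base 99 of Fth1-201, within a 5′ untranslated region of 224 bases, and at base 90 of Ftl1-201, within one of 253 bases. The search asked for a C, 5 bases, the loop and 5 bases that pair with the first 5, G-T pairs allowed, in up to 300 bases of the untranslated region. It found 22 of 20874 annotated genes (0.105%), among them Alas2 and Slc40a1, which are known for this element.

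The values compared are log differences, KO minus WT, read as natural logs of apparently batch-integrated values. They are not fold changes of transcripts. Cells of all types were pooled, so a different mix of cells and a different level per cell cannot be told apart in any of them. Beside them stand the shares of cells with a value above 0, which after integration are not shares of cells with a transcript. A gene was counted as called at an adjusted p under 0.05. All 4 members were called in the authors' deposited table, 3 higher (Ftl1, Mt1 and Mt2) and 1 lower (Fth1). Of all 1802 listed genes 93.2% were called, 69.1% as higher and 24.1% as lower, so being called says little of the members, and they were chosen with these calls known. The table lists no gene with a raw p above 0.00938.

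Because the median log difference was 0.010 and not 0 in the authors' deposited table, directions were also read against that median. Of the called genes, 74.2% were above 0 and 49.2% above the median. All 4 members kept their direction: minus the median, the values were 0.0820 for Ftl1, 0.0771 for Mt1, 0.0362 for Mt2 and -0.0913 for Fth1.

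The targeted gene was not lower in the KO libraries by the values as deposited. For Abca1 the authors' deposited table gives 0.0294 as the log difference (adjusted p = 4.49e-05) and values above 0 in 30.5% of WT and 48.7% of KO cells. KO below therefore means cells of the libraries labelled KO. For 1764 of the 1802 genes (97.9%) the share above 0 was larger in KO in the authors' deposited table. The median difference was 20.8 percentage points, so a larger share by itself does not set a gene apart. Read against the median gene, Abca1 had a log difference of 0.0194 but a share difference of -2.6 points.

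Mt1 and Mt2 were both higher in KO. Mt1, the main inducible metallothionein together with Mt2, had a value above 0 in 40.5% of WT cells and 61.1% of KO cells in the authors' deposited table. Its log difference was 0.0871 (adjusted p = 1.13e-11 in the authors' deposited table), which ranked 61 from the highest of the 1802 genes. Mt2 had a value above 0 in 38.3% of WT cells and 58.7% of KO cells in the authors' deposited table. Its log difference was 0.0463 (adjusted p = 9.79e-18 in the authors' deposited table), which ranked 219. The pair thus lay close together in their shares, within 2.2 percentage points in WT and 2.4 in KO, and apart in their log differences, by 0.0408. The gene with the larger log difference had the larger p: the raw p was 5.67e-15 for Mt1 and 4.90e-21 for Mt2 in the authors' deposited table. Their share differences of 20.6 and 20.4 points were just under the median of all listed genes, so the shares alone do not distinguish the metallothioneins from the other genes.

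**Figure D1:**
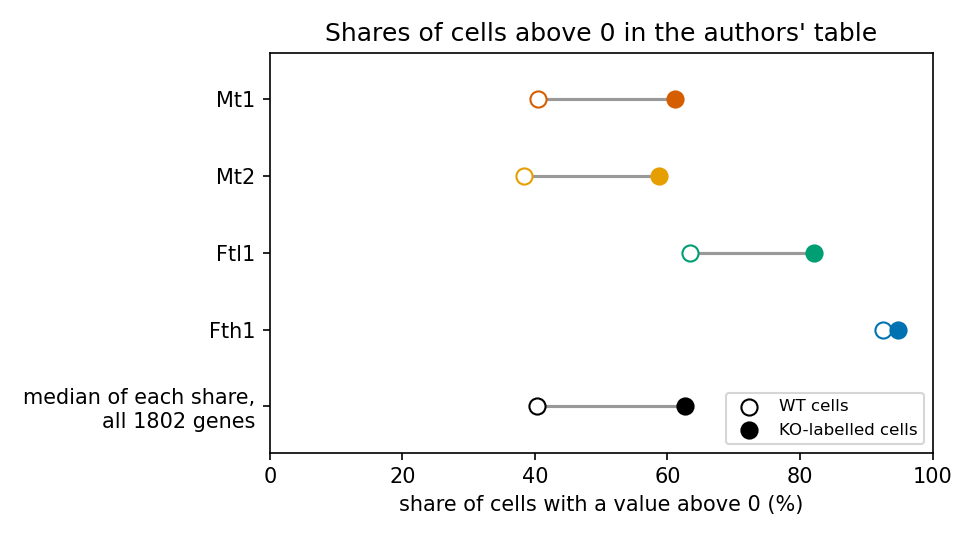
Share of cells with a value above 0 (x axis, %) in WT cells (open circles) and cells of the libraries labelled KO (filled circles) for the 4 genes, with the median of each share over all 1802 listed genes below; values are pooled over cells and have no error bars. Mt1, Mt2 and Ftl1 move right by 18.7 to 20.6 points, close to the median gene, and Fth1 by 2.3 points from 92.5%.

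The ferritin chains lay on opposite sides of 0. Ftl1, the light chain, had a value above 0 in 63.4% of WT cells and 82.1% of KO cells in the authors' deposited table, a difference of 18.7 points. Its log difference of 0.0921 was the highest of the 4 genes (rank 53 of 1802, adjusted p = 1.62e-18 in the authors' deposited table). Fth1, the heavy chain, had a value above 0 in 92.5% of WT cells and 94.8% of KO cells in the authors' deposited table, a difference of 2.3 points. Its log difference was -0.0812 (adjusted p = 2.57e-43 in the authors' deposited table), the rank of 28 from the lowest. For Fth1 the log difference and the share difference thus had opposite signs, whereas for Ftl1 both were above 0. Opposite signs do not set Fth1 apart, since 97.9% of all listed genes had a larger share in KO. All 10 listed rod markers likewise had a log difference below 0 and a larger share in KO. The log differences of the chains were 0.173 apart. The heavy chain led the light chain in share by 29.1 points in WT and 12.7 points in KO, so the gap between the chains was narrower in KO by 16.4 points. No test of that gap was possible without values per library, and Fth1 started near the top of the scale, where 7.5 points or less could be gained.

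Counting could differ between the chains. Of the 251 overlapping 50-base words in the last 300 bases of Ftl1-201, 165 (65.7%) also occurred in transcripts of 11 other annotated genes, among them the retrocopies Ftl1-ps1, Ftl1-ps2 and Ftl2-ps. For Fth1, Mt1 and Mt2 the same count was 0. Libraries were read from the 3′ end, and how reads with several matches were counted is not stated in the labels, so the values of Ftl1 are uncertain in that respect. None of the copies of Ftl1 was listed in the table.

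**Figure D2:**
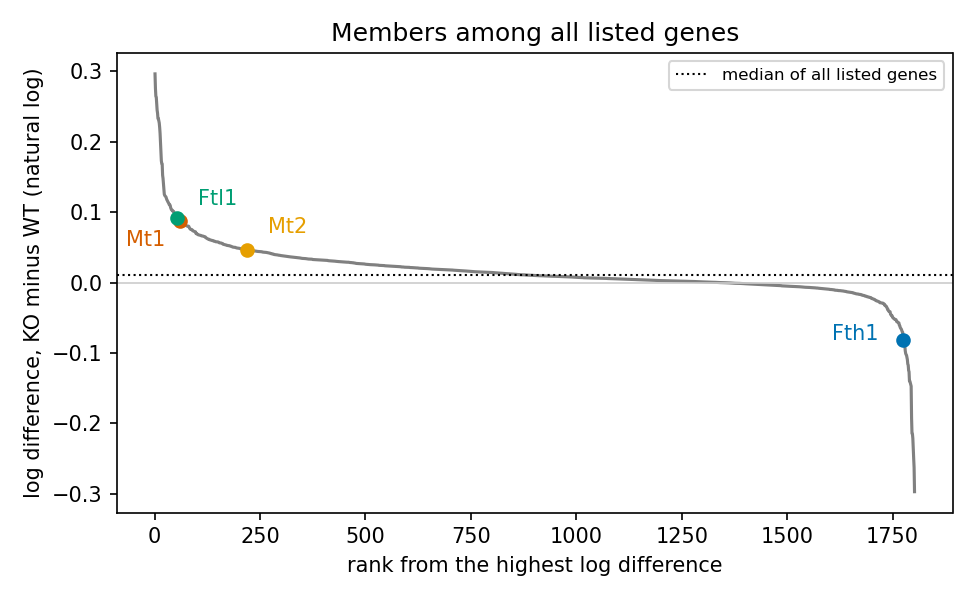
Log difference, KO minus WT (y axis, natural log), of all 1802 listed genes against their rank from the highest (x axis), with the 4 genes as coloured points and the median gene as a dotted line. Ftl1 and Mt1 sit at ranks 53 and 61 near the upper end, Mt2 at 219, and Fth1 at 1775 near the lower end.

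Log differences in this table varied with how widely a gene had values above 0, so each member was set beside genes of like share, as a description. Of 15 other genes with a WT share within 5 points of Fth1, 14 were below 0 and 1 above, with a median of -0.140, and 4 had a log difference above that of Fth1. Of the 15 genes with a share over 90% in both genotypes, Fth1 included, all 15 had log differences below 0 and 14 were called lower, from -0.297 (Tma7) to -0.0557 (Rps29), with a median of -0.140 in the authors' deposited table. Within this group, formed after the values were seen, 13 genes had a log difference below that of Fth1. Among all listed genes 24.1% were called lower. The heavy chain was thus low among all listed genes but in the upper part of both groups of like share. The 3 genes nearest to Fth1 in both shares were Gnat1, rod transducin alpha (-0.140), Rcvrn, recoverin (-0.147), and Cst3, the protease inhibitor cystatin C (-0.214), all lower still in the authors' deposited table.

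Ftl1 and the metallothioneins were high among genes of like share. Of 39 other genes with a WT share within 5 points of Ftl1, 26 were above 0, and 6 had a log difference above that of Ftl1. The nearest in both shares were Rdh12, a photoreceptor retinol dehydrogenase (0.00349), Gnas, a stimulatory G protein subunit (0.0513), and H2-D1, a class I antigen (-0.0473) in the authors' deposited table. Of 812 other genes within 5 points of the WT share of Mt1, 20 were above Mt1, and the median was 0.0149. The nearest were Lin7c (0.0384), Pitpnm3 (0.0274, not called, adjusted p = 0.838) and Zc3h4 (-0.00495) in the authors' deposited table. Of 771 within 5 points of Mt2, 85 were above it, and the median was 0.0137. The nearest to Mt2 were Fnip2 (0.00291), Tpbg (0.0193) and Elovl2, a fatty acid elongase (-0.00231) in the authors' deposited table. Likeness here is the distance in 2 shares of 1 comparison, and such neighbours had log differences of either sign.

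**Figure D3:**
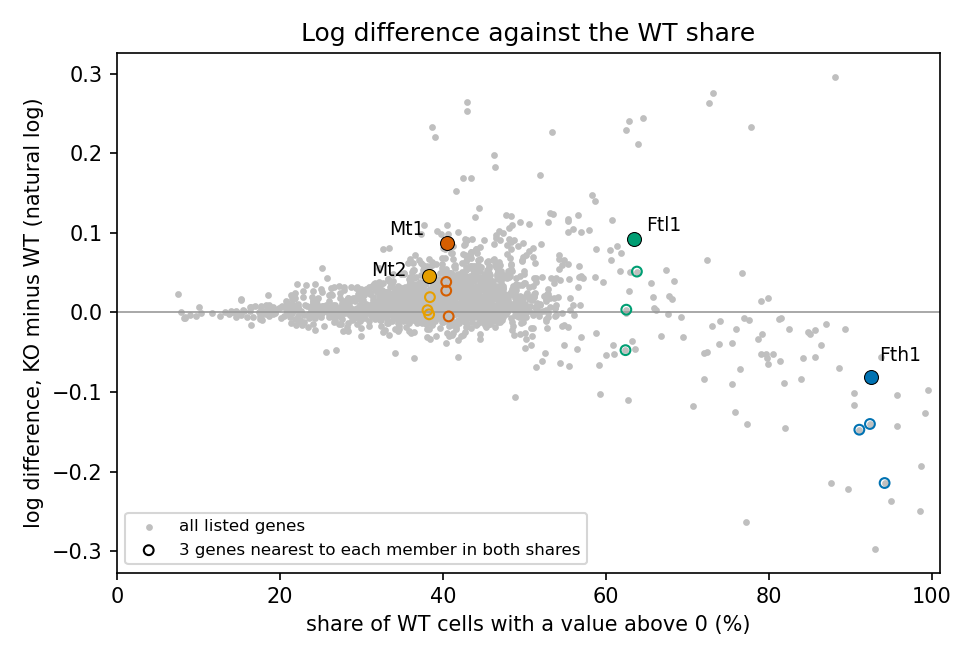
Log difference, KO minus WT (y axis, natural log), against the share of WT cells with a value above 0 (x axis, %) for all 1802 listed genes in grey, with the 4 genes filled and the 3 genes nearest to each in both shares as open circles of its colour. Mt1, Mt2 and Ftl1 lie above their nearest genes, and Fth1 lies above Gnat1, Rcvrn and Cst3 although it is below 0.

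Few other genes of iron handling were in the table. Of 34 looked for, 5 were listed, with a median log difference of 0.0202 against 0.010 for all listed genes. Of these 5, 3 were called higher and 2 lower, and 3 lay above the median gene. Among all listed genes 69.1% were called higher. Those higher were Steap2, a metalloreductase (0.0300), Tfrc, the transferrin receptor that brings iron into cells (0.0243), and Trf, transferrin itself (0.0202, adjusted p = 0.0101) in the authors' deposited table. Tfrc had a value above 0 in 29.7% of WT and 44.9% of KO cells in the authors' deposited table. Those lower were Pcbp2, an RNA-binding protein that also carries iron to ferritin (-0.0666), and Heph, the ferroxidase hephaestin (-0.00258) in the authors' deposited table. Pcbp2 was thus the one nearest to Fth1 in log difference, and no listed gene of the group came near Ftl1. The exporter Slc40a1, the iron regulatory proteins Aco1 and Ireb2, the ferritin receptor Ncoa4 and Hmox1 were among the 29 not listed, which does not show that they were unchanged.

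Of 32 genes of zinc and copper handling, 2 were listed, 1 in each direction, where 69.1% of all listed genes were called higher and 24.1% lower. The zinc importer genes Slc39a1 and Slc39a10 had log differences of 0.00638 and -0.0131 in the authors' deposited table, both small beside the metallothioneins, and Slc39a1 lay below the median gene. Mtf1 and its other well-known target, the zinc exporter Slc30a1, were not listed.

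Of 28 genes of antioxidant defence and glutathione, 9 were listed, 8 called higher and 1 lower, with a median of 0.0182, and 6 of the 9 lay above the median gene. Among all listed genes 69.1% were called higher, and the direction of the group was not tested. Gclm, a subunit of the rate-limiting enzyme of glutathione synthesis, had the highest value (0.0326), followed by the glutathione transferase genes Gsta4 (0.0259) and Gstm5 (0.0229) in the authors' deposited table. The cystine transporter gene Slc7a11 was lower (-0.00815) in the authors' deposited table. All 9 were below Mt1, Mt2 and Ftl1 in log difference.

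Among markers of cells known for metallothionein or ferritin, Müller glia had 8 of 10 listed, 7 called higher and 1 lower, with a median of 0.0367 and values from -0.0288 (Aqp4) to 0.0801 (Vim) in the authors' deposited table. Astrocytes had 3 of 7 listed, all higher, with a median of 0.0128, from 0.0101 (Gfap) to 0.0444 (Gja1) in the authors' deposited table. Microglia, which store iron, had 9 of 10 listed, 5 higher and 4 lower, with a median of 0.000755, and with -0.00387 for C1qa and 0.0373 for C1qb in the authors' deposited table. For the retinal pigment epithelium 5 of 8 were listed, 4 higher and 1 lower. Their values ran from -0.00605 (Lrat) to 0.0800 (Dct), with a median of 0.00247 in the authors' deposited table. Above the median gene lay 6 of the 8 listed markers of Müller glia and all 3 of astrocytes. For microglia it was 4 of 9, and for the pigment epithelium 2 of 5. Of all listed genes, 69.1% were called higher and 24.1% lower, and the direction of no marker list was tested.

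Rod markers spanned the widest range of the marker lists. Of 13 rod markers 10 were listed, all lower, from -0.263 (Rp1) to -0.0494 (Pde6b), with a median of -0.141 in the authors' deposited table. Fth1 (-0.0812) lay near the upper end of that range, between Nrl (-0.0836) and Pde6b, and above the rod median. The 7 cone markers were all higher, from 0.0678 (Gnat2) to 0.173 (Arr3), with a median of 0.0996 in the authors' deposited table. That range contains Mt1 and Ftl1 but not Mt2. Mt2 (0.0463) fell in the ranges of the Müller glia and pigment epithelium markers given above. The ranges of astrocytes and microglia contained none of the 4 genes. Of all listed genes, 24.1% were called lower and 69.1% higher. Of 5 erythrocyte markers, 0 were listed. The part of these cell types in the values of the 4 genes was not tested.

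**Figure D4:**
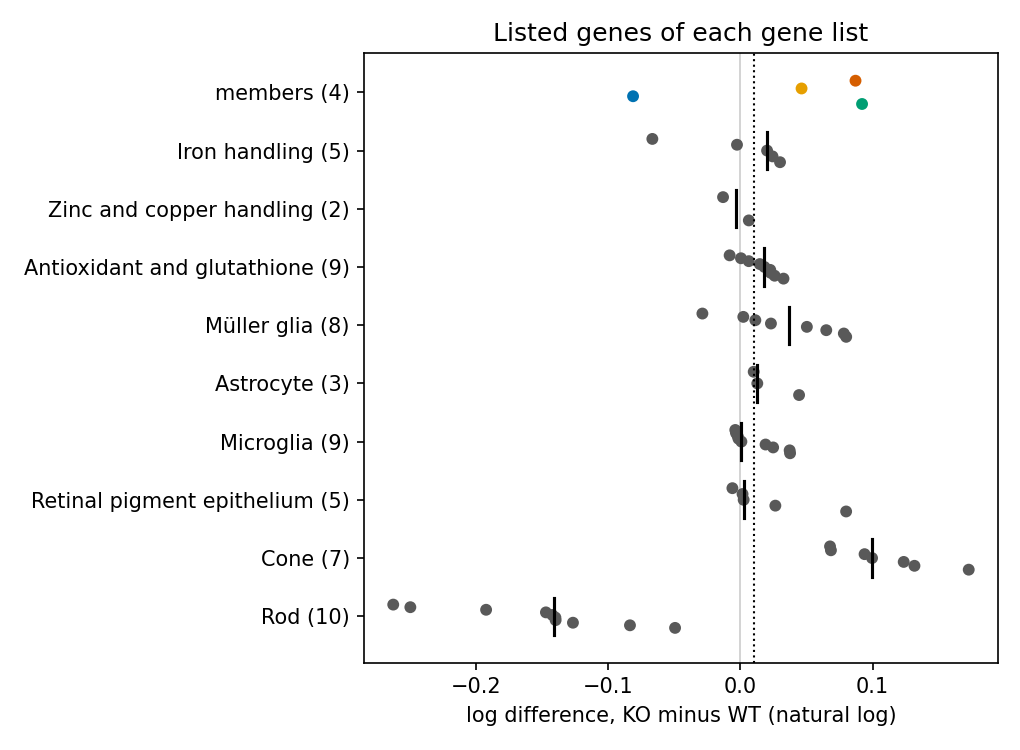
Log difference, KO minus WT (x axis, natural log), of the 4 genes (top row, coloured: Mt1 vermilion, Mt2 orange, Ftl1 green, Fth1 blue) and of the listed genes of each list (rows, number listed in brackets); black bars are list medians and the dotted line is the median of all listed genes. Fth1 falls near the upper end of the range of rod markers, and Mt1 and Ftl1 lie above all listed genes of iron, zinc, copper and antioxidant handling.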

How the data were processed

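Single-cell libraries were made from papain-dissociated retina with 3′ chemistry, per the labels' protocols (3 WT, 5 KO libraries, grouped by title). The submitters' processing notes name GRCm38 and the tools Cell Ranger, DESeq2 and Seurat 3.1.4, without their roles. A single table, the authors' KO against WT comparison, was used. Every row names KO as its cluster, which makes the first share the one of KO cells. The base of the deposited log difference is not in the header, and a natural log was assumed because that Seurat version uses it. The deposited shares are fractions, printed here as percent. The deposited raw and adjusted p-values have a quotient of 2000 in all 1554 rows where it could be formed (relative tolerance 1e-06), which fits a Bonferroni correction for 2000 features, of which 198 were not listed. The test behind the p-values, filters, doublets, integration and cell numbers are not stated in the labels or header. If cells were the units, the p-values do not measure the spread between libraries. Depth is unknown, so no error or interval is given.

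From the table, ranks, differences and counts were computed with Python 3.11.15 and pandas 2.3.3. Promoter windows came from RefSeq (GRCm38.p6, all 4 genes matched), transcripts and positions from GENCODE M21. Named genes were the 4 members, listed genes of the fixed lists, the 3 genes nearest to each member in both shares, and Abca1. Tma7, Rps29 and the groups of like share were added after values were seen. Members and lists were chosen with earlier results of these data known. The scripts were tested on simulated data. Per-library tests were planned for the case of per-library values and were not run. Alternatives were the zero point, the adjustment and threshold of p, the scale of the shares, the log base and the promoter window.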

Additional observations from a re-analysis of the deposited data

How the results depend on the processing

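All 4 log differences kept their sign, and the calls stayed at 3 higher and 1 lower, when the median gene was taken as 0. The calls also passed a threshold of 0.01. Benjamini-Hochberg adjustment could lose no call, since it is never stricter than the Bonferroni correction that the deposited values fit, and neither change bears on the signs. The share differences depended on the zero point. Minus the median share difference they turned to -0.2 points for Mt1, -0.4 for Mt2, -2.1 for Ftl1 and -18.5 for Fth1. On the log odds scale, minus the median, they were -0.0376 for Mt1, -0.0454 for Mt2 and -0.483 for Fth1, but 0.0999 for Ftl1. By construction these values are relative to a median gene with a larger share in KO. If the log base were 2 and not e, the gap between Ftl1 and Fth1 would correspond to a ratio of 1.13 in place of 1.19, and that between Mt1 and Mt2 to 1.03 in place of 1.04. These are ratios of apparently batch-integrated values and not fold changes of transcripts. Counting only the 250 bases before the start lowered the metal response matches from 4 to 3 for Mt2 and from 3 to 1 for Mt1. No paired analysis was possible because the table holds no value per library, and no library could be left out for the same reason. Depth per library is unknown, so what it limits could not be stated.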
